A study of Mus musculus with 6 samples.

Results

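Zinc is stored and moved inside intestinal cells by a small set of proteins, and 9 of their genes were followed here in the ileal crypt epithelium: the metallothionein genes Mt1 and Mt2, the zinc-sensing transcription factor gene Mtf1, the exporter genes Slc30a1, Slc30a2 and Slc30a10, and the importer genes Slc39a4, Slc39a5 and Slc39a14. The 9 members were chosen by gene symbol, and each symbol matched 1 of the 32285 genes in the files. All 9 had UMIs in the kept cells and all 9 passed the filter on low counts. Mt1 was brought in because its level had been seen to differ between the 2 groups of these same libraries. Its group difference is therefore given as a description with no test, and the question asked is whether the other 8 members followed it, between the groups and across the classes of epithelial cells.

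Crypts of mouse ileum were dissociated, epithelial cells were sorted on the surface protein EpCAM, and their transcripts were counted by droplet-based single-cell RNA sequencing. There were 3 libraries of Fpr2f/f mice, labelled WT, in which Fpr2 is flanked by recombination sites but left in place, and 3 libraries of Fpr2VKO mice, in which the Cre recombinase is driven by the Villin promoter to remove Fpr2 from intestinal epithelial cells. Fpr2 encodes a G protein-coupled receptor for formyl peptides. Both groups carried the floxed allele, which came from mice on the C57BL/6J background. The mice of both groups received no treatment and, per the methods of the study, were sex- and age-matched adults. The Cre transgene and the loss of Fpr2 went together, so they cannot be told apart here. The captions of the study give as many mice as libraries in each group, although the labels do not tie a library to a mouse.

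Metallothioneins are small cysteine-rich proteins that bind zinc and copper. When free zinc in a cell rises, MTF1 binds metal response elements in the promoters of Mt1, Mt2 and Slc30a1 and raises their transcription, which makes these genes the textbook readout of zinc load. In the gut, ZIP4 (Slc39a4) takes up dietary zinc at the apical membrane, ZIP5 (Slc39a5) and ZIP14 (Slc39a14) work at the basolateral side, ZnT1 (Slc30a1) exports zinc, and ZnT2 (Slc30a2) loads zinc into granules, including those of Paneth cells.

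After the filters (at least 1000 UMIs and 500 genes per barcode, at most 20% mitochondrial UMIs), 10201 Fpr2f/f cells and 6903 Fpr2VKO cells remained. A UMI, or unique molecular identifier, marks 1 captured transcript. Kept cells held 26540424 to 52349750 UMIs per library, so that 3 UMIs correspond to 0.0573 to 0.113 CPM (counts per 1000000 UMIs of the same cells). The median cell of a library held 3033 to 4612 UMIs in Fpr2f/f and 6358 to 6728.5 UMIs in Fpr2VKO. The mitochondrial limit removed 65.7% to 90.1% of the barcodes that passed the other limits. Barcodes with fewer than 100 UMIs, taken as free RNA, held 7.25% to 13.1% of a library's UMIs, and free RNA was not removed from the cells. Pairs of libraries shared 0 to 23 kept barcodes, at most 1.01% of the smaller library. If barcodes were independent, 1.79 to 5.68 would be shared, and 4.54 by the pair that shared 23. Epcam reached 1174 to 1358 CPM and the endothelial and fibroblast genes Pecam1 and Col1a1 at most 5.65 and 0.452 CPM. Fpr2 had 0 UMIs in every library, controls included, so its loss could not be checked. All comparisons below used UMIs summed per library.

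Mt1 (ENSMUSG00000031765) lies on chromosome 8 of GRCm38, 94179082 to 94180327, on the plus strand, and 5513 bases downstream of the end of Mt2 (ENSMUSG00000031762, 94172664 to 94173568, plus strand). Mt1 reached 284, 241 and 361 CPM in Fpr2f/f replicates 1 to 3, and 1106, 1103 and 1169 CPM in Fpr2VKO replicates 1 to 3, the order used for all values below. The 3 Fpr2VKO libraries lay close together and every one of them held more than 3 times the Mt1 of the highest Fpr2f/f library. The mean was 295 ± 60.7 CPM (SD, n = 3) against 1126 ± 37.3 CPM (SD, n = 3), a ratio of 3.82 and a fitted log2 fold change of 1.98 (SE 0.15).

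Mt2, which is normally raised and lowered together with Mt1, did not follow it. Its levels were 33.8, 24.1 and 55.0 CPM in Fpr2f/f and 29.0, 42.5 and 44.6 CPM in Fpr2VKO, and the ranges overlapped fully. The fitted log2 fold change was 0.10 (SE 0.34, edgeR adjusted p = 0.943). Because both genes were counted in the same cells, their ratio within a library needs no scaling between libraries. For each Mt2 UMI there were 8.39, 9.997 and 6.55 Mt1 UMIs in Fpr2f/f, compared with 38.1, 25.9 and 26.2 in Fpr2VKO. The annotated transcripts of the pair share no identical stretch longer than 20 bases.

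The start regions of both metallothionein genes are shown because MTF1 acts on both through the same short letters. The sequences are RefSeq promoters of GRCm38.p6, 250 bases before to 50 bases after the annotated start, chr8:94178839-94179138 for Mt1 and chr8:94172368-94172667 for Mt2, both on the plus strand. Capitals mark matches on either strand to TGCACNC or TGCGCNC, the core letters of a metal response element, with overlapping matches counted separately.
Mt1: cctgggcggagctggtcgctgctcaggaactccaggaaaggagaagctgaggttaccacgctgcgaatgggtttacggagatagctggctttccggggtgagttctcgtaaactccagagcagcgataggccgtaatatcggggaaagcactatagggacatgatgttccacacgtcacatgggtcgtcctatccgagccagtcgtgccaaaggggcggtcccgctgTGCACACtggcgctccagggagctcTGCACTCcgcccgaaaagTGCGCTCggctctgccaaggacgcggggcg
Mt2: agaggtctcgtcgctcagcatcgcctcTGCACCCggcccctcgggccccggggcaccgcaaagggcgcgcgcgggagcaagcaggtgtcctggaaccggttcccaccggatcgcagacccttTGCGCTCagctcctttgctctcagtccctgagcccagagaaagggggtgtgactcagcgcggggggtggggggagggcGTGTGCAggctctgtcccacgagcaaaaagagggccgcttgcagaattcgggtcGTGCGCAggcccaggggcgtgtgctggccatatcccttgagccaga
The Mt1 window holds 3 matches and the Mt2 window 4. Among 32851 promoters of this length, 25.7% held at least 1 match, 1.97% at least 3 and 0.517% at least 4. Of the other members, 5 had an entry: Slc30a10 held 3 matches, Slc30a1 and Slc30a2 held 2 each, 1 of the entries of Slc39a5 held 1 and the other 0, and Mtf1 held 0. A match in these letters is a description of the window and does not show that a factor binds there.

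**Figure D1:**
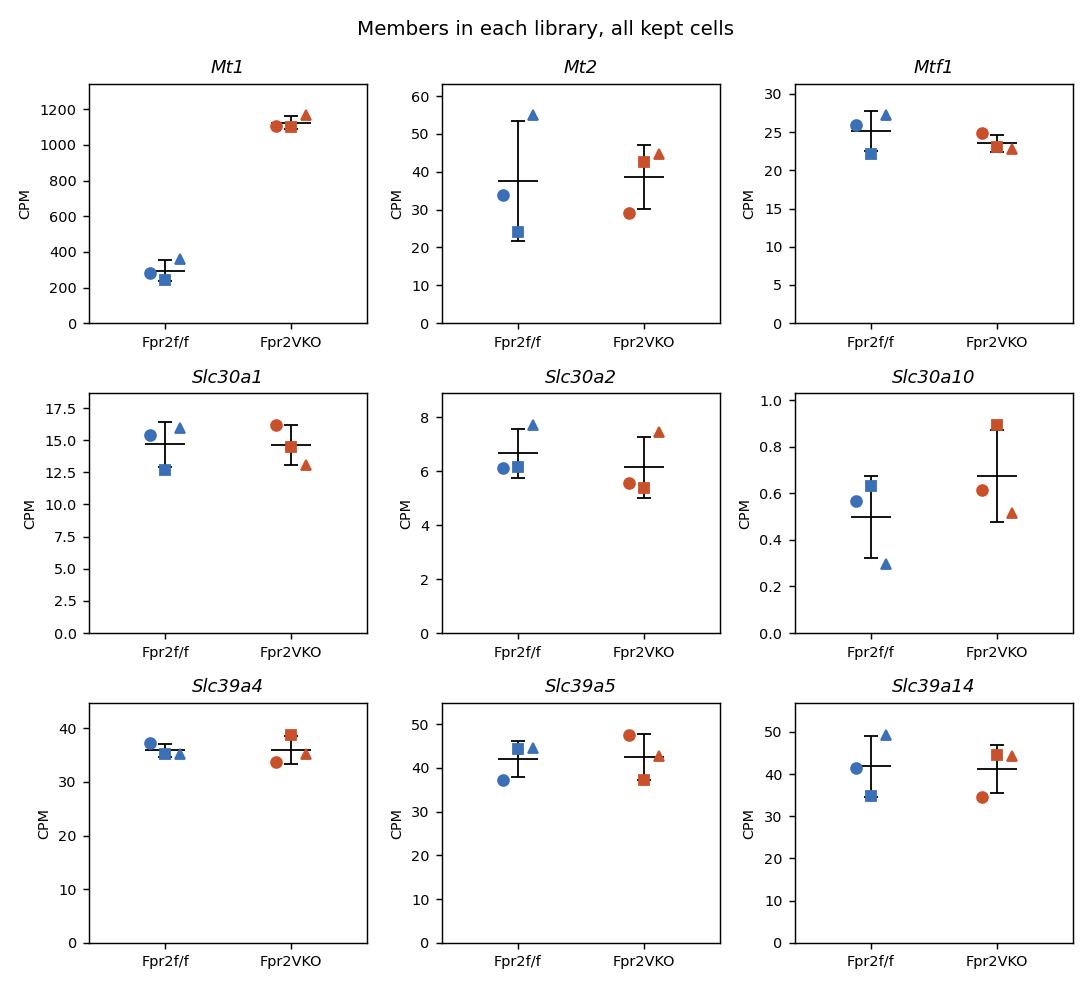
CPM (linear axis from 0) of each of the 9 members over all kept cells, with 1 point per library (circle, square and triangle for replicates 1, 2 and 3) and black bars for the mean ± SD of the 3 libraries of a group. Mt1 is the 1 member whose groups do not overlap; the other 8 panels show overlapping groups.

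As for Mt2, the groups overlapped for the other 7 members. Mtf1 (ENSMUSG00000028890), the zinc-sensing factor itself, reached 26.0, 22.2 and 27.3 CPM in Fpr2f/f and 24.8, 23.0 and 22.8 CPM in Fpr2VKO (log2 fold change -0.05, SE 0.10, adjusted p = 0.917). Slc30a1 (ENSMUSG00000037434), the exporter that MTF1 normally raises beside the metallothioneins, stood at 15.4, 12.7 and 15.9 CPM against 16.2, 14.5 and 13.1 CPM (log2 fold change 0.04, SE 0.12, adjusted p = 0.934). The means of this classical MTF1 target, 14.7 ± 1.76 and 14.6 ± 1.55 CPM (SD, n = 3 each), differed by less than the spread between libraries.

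Among the remaining exporters, Slc30a2 (ENSMUSG00000028836) measured 6.10, 6.15 and 7.72 CPM in Fpr2f/f and 5.56, 5.39 and 7.46 CPM in Fpr2VKO, with a log2 fold change of -0.08 (SE 0.17, adjusted p = 0.912). Slc30a10 (ENSMUSG00000026614), which exports mainly manganese, was the scarcest member with 10 to 39 UMIs per library. It stood at 0.565, 0.630 and 0.297 CPM against 0.613, 0.894 and 0.516 CPM (log2 fold change 0.48, SE 0.39, adjusted p = 0.767), so that at this depth only a large difference could have been seen.

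The 3 importer genes had overlapping groups as well. Slc39a4 (ENSMUSG00000063354), whose transcripts are known to rise when zinc is scarce, had 37.3, 35.3 and 35.2 CPM in Fpr2f/f and 33.8, 38.8 and 35.2 CPM in Fpr2VKO (log2 fold change 0.05, SE 0.11, adjusted p = 0.910). Slc39a5 (ENSMUSG00000039878) had 37.2, 44.4 and 44.6 against 47.6, 37.1 and 42.8 CPM (log2 fold change 0.05, SE 0.12, adjusted p = 0.926). Slc39a14 (ENSMUSG00000022094), a transporter of zinc, iron and manganese, had 41.4, 34.8 and 49.4 against 34.6, 44.6 and 44.3 CPM (log2 fold change 0.03, SE 0.15, adjusted p = 0.958). In all 3 the group means differed by less than the spread between libraries.

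Over all cells, 0 of the 8 members other than Mt1 passed the test (edgeR quasi-likelihood, Benjamini-Hochberg adjusted p under 0.05), 0 had an unadjusted p under 0.05, and DESeq2 called 0 of 8. The background was low, since 3 of 16917 genes passed, or 0.0177%, with Mt1, itself chosen for its difference, counted among the 3. At an unadjusted p under 0.05 there were 1430, and DESeq2 called 96 of all genes. The groups did not overlap in CPM for 1 of the 9 members, Mt1, against 13.1% of all genes tested. The SEs of 0.10 to 0.17 for the 6 members other than Mt2 and Slc30a10 are small beside the log2 fold change of 1.98 fitted for Mt1, while that of Mt2, 0.34, is larger because its level varied among the libraries of each group.

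The rest of the zinc genes were read from a list. Of 20 further metallothionein and zinc transporter genes, 17 passed the filter and 0 were called by edgeR or DESeq2. The importer gene Slc39a6 (log2 fold change 0.41, SE 0.15) was the 1 with an unadjusted p under 0.05, beside 1430 of all 16917 genes tested. The median log2 fold change of the 17 was 0.06, beside 0.0020 for all genes tested, with 12 fitted higher and 5 lower. Leaving aside genes under 5 CPM on average, the largest fitted changes were those of the importer genes Slc39a10 (0.21, SE 0.13), Slc39a1 (-0.21, SE 0.11) and Slc39a7 (-0.14, SE 0.12) and the exporter gene Slc30a4 (0.15, SE 0.12). Mt3 and Mt4 are the other genes of the metallothionein cluster. Mt3 averaged 0.579 CPM in Fpr2f/f and 0.359 CPM in Fpr2VKO (log2 fold change -0.65, SE 0.34, adjusted p = 0.645) and Mt4 did not pass the filter.

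The position of Mt1 was examined in the same way. Of the 20 nearest annotated genes on each side, 25 of 40 passed the filter over all cells, and 0 were called by edgeR or DESeq2, with 0 at an unadjusted p under 0.05. Their log2 fold changes ran from -0.65 to 0.47 with a median of 0.03, and none was called in any class of cells either. These neighbours span chromosome 8 from 93302369 to 94854895 and include Mt2 and Mt3. On the whole of chromosome 8, no gene other than Mt1, itself chosen for its difference, was called over all cells. With Mt1 counted, 4 of 19 genes called in stem-like cells lay there, beside 611 of 10979 tested. In Paneth-like cells it was 7 of 79, beside 521 of 9191, and in goblet-like cells 2 of 7, beside 615 of 10886. The other classes had at most 1.

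Metallothionein genes also answer to copper, oxidative stress, glucocorticoids and acute phase signals, so lists of genes for each of these were read from the same fit. None of their genes was called over all cells by edgeR or DESeq2. For the counts at an unadjusted p under 0.05 that follow, the background was 1430 of the 16917 genes tested. Of 14 copper and iron genes tested, 2 (Ccs and Cybrd1) had an unadjusted p under 0.05 and the median log2 fold change was 0.09. Among genes of at least 5 CPM on average, the largest were the copper chaperone gene Ccs (0.27, SE 0.10), the ferritin heavy chain gene Fth1 (0.27, SE 0.13), Slc31a2 (0.25, SE 0.17) and the copper ATPase gene Atp7b (0.22, SE 0.18). Cybrd1, below that level at 1.55 CPM in Fpr2f/f and 2.49 CPM in Fpr2VKO, had a log2 fold change of 0.71 (SE 0.27). Of 10 oxidative stress genes, 0 had an unadjusted p under 0.05 and the median was -0.10. The cystine transporter gene Slc7a11 (-0.29, SE 0.17), Srxn1 (-0.25, SE 0.12), Prdx1 (0.23, SE 0.17) and Gsr (-0.17, SE 0.16) stood farthest from 0 among genes of at least 5 CPM, while Hmox1, at 1.03 and 0.769 CPM, stood at -0.43 (SE 0.39).

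Of 8 glucocorticoid-responsive genes, 1 (Tsc22d3) had an unadjusted p under 0.05 and the median was 0.03. Tsc22d3 (0.33, SE 0.12), Fkbp5 (0.21, SE 0.17), Sgk1 (-0.17, SE 0.12) and Dusp1 (-0.13, SE 0.20) differed most. The 7 acute phase and Stat3 genes tested were all fitted lower in Fpr2VKO, with a median of -0.62 and 2 (Socs3 and Reg3g) at an unadjusted p under 0.05, but the smallest adjusted p was 0.452 (edgeR). Those named by size among genes of at least 5 CPM were the antimicrobial lectin genes Reg3b (-0.72, SE 0.39) and Reg3g (-0.69, SE 0.26), the feedback inhibitor gene Socs3 (-0.62, SE 0.18) and Stat3 (-0.13, SE 0.12). Within the classes of cells, 0 genes of the 5 lists passed, in 99 tests of zinc genes, 94 of copper and iron, 65 of oxidative stress, 43 of glucocorticoid and 37 of acute phase genes.

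**Figure D2:**
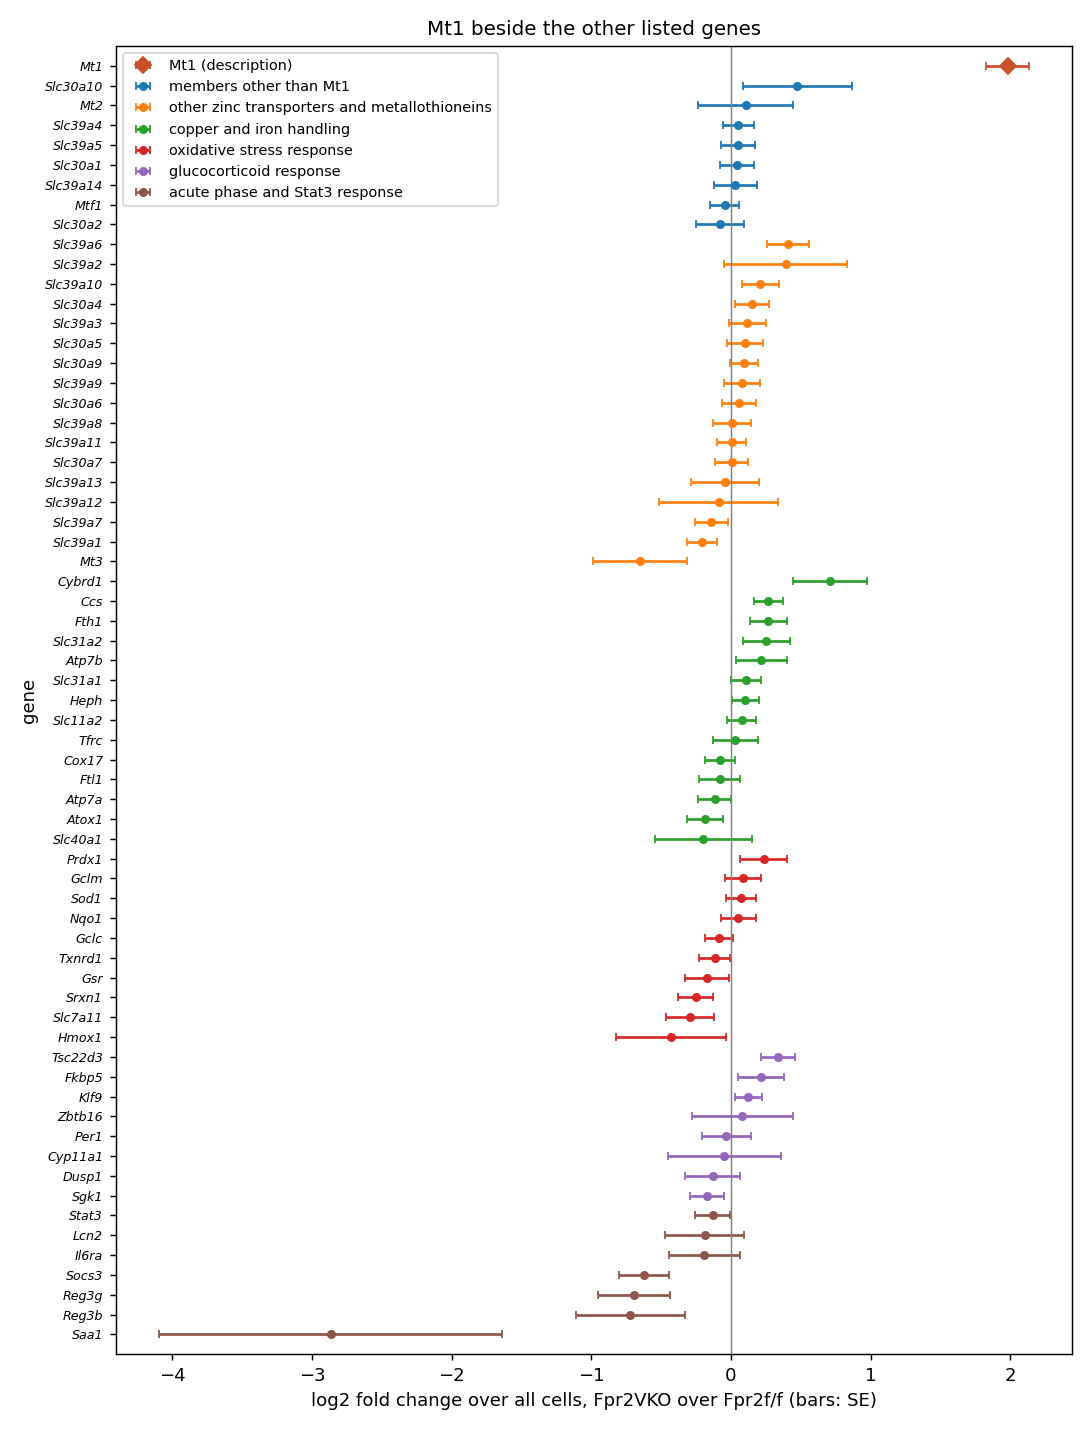
Log2 fold change over all cells (Fpr2VKO over Fpr2f/f, horizontal axis) with its SE for Mt1, the other 8 members and the genes of the 5 lists that passed the filter, coloured by list. Mt1 sits at 1.98, and the 8 other members lie between -0.08 and 0.48. Saa1, a gene of 2.11 ± 2.33 CPM in Fpr2f/f and 0.274 ± 0.233 CPM in Fpr2VKO (SD, n = 3 each), stands far to the left with a wide SE and was not called.

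Cells were then grouped by clustering without the members and the listed genes, and clusters were named from fixed markers with the ending "-like", since names rest on transcripts alone. There were 980 stem-like, 1971 transit-amplifying (TA)-like, 603 enterocyte-like, 963 Paneth-like, 1721 goblet-like, 448 enteroendocrine-like, 365 tuft-like and 293 immune-like cells, and 9760 stayed unnamed. Each marker list was highest in the class of its name, which follows in large part from naming by these same lists. The ranges of the shares did not overlap for some classes, with stem-like cells at 2.33% to 4.76% of an Fpr2f/f and 7.32% to 9.86% of an Fpr2VKO library, enterocyte-like cells at 1.61% to 2.88% and 4.01% to 6.54%, and unnamed cells at 60.05% to 68.1% and 44.2% to 51.9%, so the comparison within classes was made beside that over all cells.

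Mt1 stood higher in Fpr2VKO in all 8 classes that were fitted, with the unnamed cells as 1 of the 8. In each of them every Fpr2VKO library lay above every Fpr2f/f library. In stem-like cells it reached 418, 457 and 618 CPM in Fpr2f/f and 996, 1019 and 1087 CPM in Fpr2VKO (log2 fold change 1.07, SE 0.14), the smallest of the 8 differences. In TA-like cells the levels were 330, 365 and 461 against 1081, 1082 and 1180 CPM (1.54, SE 0.15). Enterocyte-like cells, the absorptive cells, held 320, 418 and 457 against 2011, 2108 and 2076 CPM (2.33, SE 0.16), the highest levels in Fpr2VKO. They came from 2 clusters, cluster 13 with 185 Fpr2f/f and 350 Fpr2VKO cells and cluster 23 with 42 and 26. Mt1 was 331, 423 and 560 against 1969, 2103 and 2098.5 CPM in cluster 13. In cluster 23 it was 56.3, 0 and 28.1 against 3061, 2474 and 1626 CPM, from 3, 0 and 9 UMIs in Fpr2f/f. By CPM of the class sums, the gap fitted on the log scale was widest in the class with the least Mt1.

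That class was the Paneth-like cells, which secrete antimicrobial peptides and hold granular zinc. Mt1 was 19.8, 26.9 and 25.9 CPM there in Fpr2f/f, from 30, 251 and 122 UMIs, and 291, 306 and 325 CPM in Fpr2VKO (log2 fold change 3.61, SE 0.16). These cells came from 2 clusters of unlike depth, and their median per library was 6153 to 10638 UMIs in Fpr2f/f and 24140 to 47277 UMIs in Fpr2VKO. The shallower cluster, cluster 10, held 380 of the Fpr2f/f and 269 of the Fpr2VKO cells, and the deeper, cluster 18, held 118 and 196. Mt1 stood at 17.2, 28.3 and 27.6 against 244, 205 and 307 CPM in cluster 10 and at 21.96, 23.6 and 24.0 against 322, 399.8 and 337 CPM in cluster 18, so the groups were apart within each cluster.

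In goblet-like cells it was 93.4, 131 and 162 against 932, 1030 and 988 CPM (2.86, SE 0.17). Most goblet-like cells of Fpr2f/f were in cluster 9 (50.6%), while cluster 11 held the most of Fpr2VKO (42.1%). In enteroendocrine-like cells Mt1 was 77.9, 64.0 and 212 against 818, 844 and 933 CPM (2.96, SE 0.49), and without Fpr2f/f replicate 3 the log2 fold change was 3.61, close to that of the Paneth-like cells. In tuft-like cells Mt1 was 340, 151 and 250 against 1375, 1241 and 1129 CPM (2.34, SE 0.23). The Fpr2f/f level in this class rested on few cells. The top decile of tuft-like cells by Mt1 held 88.3%, 89.4% and 86.7% of the Mt1 UMIs in Fpr2f/f. In Fpr2VKO it held 39.1%, 54.2% and 48.3%. At full depth an Mt1 UMI was found in 22.4%, 17.8% and 19.4% of Fpr2f/f and 91.8%, 84.9% and 79.2% of Fpr2VKO cells. The unnamed cells held 321, 279 and 425 against 1406, 1381 and 1619 CPM (2.07, SE 0.16). Relative to their means, the Fpr2VKO libraries lay closer together than those of Fpr2f/f in each of these 8 classes, and the latter spread widest in enteroendocrine-like cells, where replicate 3 stood above the other two.

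**Figure D3:**
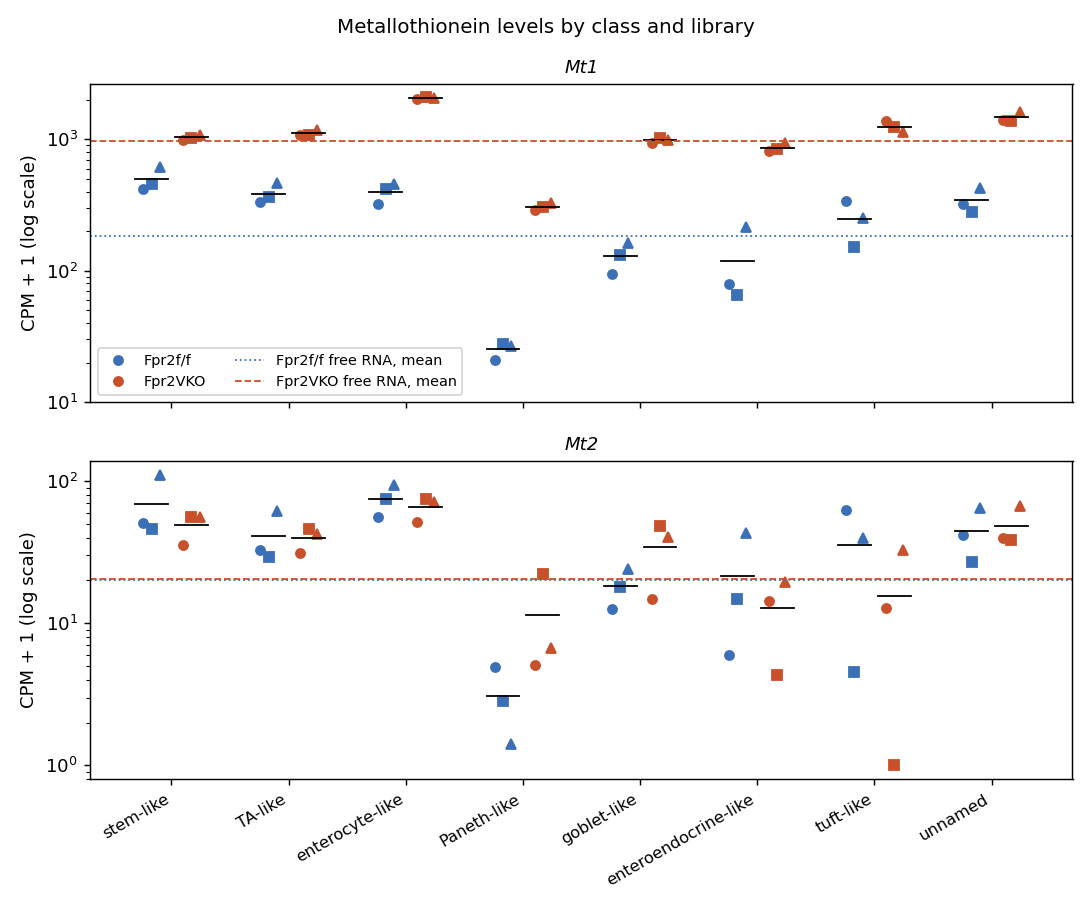
CPM + 1 (log axis) of Mt1 and Mt2 in each class of cells, 1 point per library (blue Fpr2f/f, orange Fpr2VKO; circle, square and triangle for replicates 1, 2 and 3), black bars for the group mean, and lines for the mean in free RNA of each group. The groups are apart for Mt1 in all 8 classes, and for Mt2 they overlap in 7 of 8.

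Mt1 was higher in Fpr2VKO in free RNA too, and this value belongs beside each of the class results. Whether the size of the difference was the same as in cells was not tested. Among barcodes with fewer than 100 UMIs, Mt1 was 148, 161 and 236 CPM in Fpr2f/f and 865, 934 and 1111 CPM in Fpr2VKO (log2 fold change 2.52, SE 0.20). Mt1 in Paneth-like and in enteroendocrine-like cells stood below the level in free RNA of the same library in both groups. In goblet-like cells it stood below in all Fpr2f/f libraries (93.4, 131 and 162 CPM) and in Fpr2VKO replicate 3 (988 CPM). In tuft-like cells it stood below in Fpr2f/f replicate 2 (151 CPM). In immune-like cells, which are not epithelial, Mt1 was 12.6, 50.1 and 40.6 against 147, 252 and 654 CPM, from 33 and 307 UMIs in all. When the share of a class that free RNA could make up was estimated from Paneth markers, relative to their level in free RNA, and subtracted, the log2 ratio of group means was 1.03 in place of 1.06 in stem-like, 1.52 in place of 1.53 in TA-like, 2.36 in place of 2.37 in enterocyte-like, 2.92 in place of 2.87 in enteroendocrine-like, 2.35 in place of 2.34 in tuft-like cells, with the unnamed cells unmoved at this precision. The estimate could not be made for Paneth-like and goblet-like cells, because the estimated share, from goblet markers in Paneth-like and Paneth markers in goblet-like cells, was 52.6% or more in every library. The part of free RNA in those 2 classes was not tested.

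Mt2 did not follow Mt1 within the classes. It was fitted higher in 3 of 8 classes and lower in 5, with 0 calls. These directions rested on Fpr2f/f replicate 3, since without this library Mt2 was fitted higher in 6 of the 7 classes that could be fitted. In stem-like cells it measured 49.96, 45.1 and 109 CPM in Fpr2f/f and 34.3, 55.2 and 54.6 CPM in Fpr2VKO (log2 fold change -0.49, SE 0.42, adjusted p = 0.865), and without Fpr2f/f replicate 3 the log2 fold change was 0.0096. In enterocyte-like cells, where Mt1 differed by 2.33, Mt2 measured 54.6, 73.4 and 93.0 against 50.5, 74.3 and 70.1 CPM (-0.22, SE 0.18). Pooled over libraries, there were 5.44 Mt1 UMIs per Mt2 UMI in enterocyte-like cells of Fpr2f/f and 31.2 in those of Fpr2VKO. In stem-like cells there were 7.27 and 21.5.

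The exception in level was the Paneth-like class. Mt2 had 3.96, 1.82 and 0.424 CPM in Fpr2f/f and 4.06, 21.3 and 5.73 CPM in Fpr2VKO, so the groups did not overlap, with a log2 fold change of 2.79 (SE 1.20). It did not pass the test (edgeR adjusted p = 0.541), and the values rest on 6, 17 and 2 UMIs against 19, 171 and 33. Of the 171 UMIs, 154 were in cluster 18. Within each of the clusters the groups overlapped, with 2.87, 1.99 and 0.799 against 0.538, 4.41 and 11.7 CPM in cluster 10 and 4.88, 1.43 and 0 against 6.38, 36.997 and 1.49 CPM in cluster 18. The high value was that of Fpr2VKO replicate 2, and without this library the log2 fold change fell to 1.46 (SE 0.41) while the adjusted p became 0.0336. Over all settings it ran from 1.66e-05, with the replicate number as a block, to 0.835. In goblet-like cells Mt2 had 11.7, 16.9 and 23.3 against 13.8, 47.2 and 39.7 CPM (0.86, SE 0.57, adjusted p = 0.763), and without Fpr2VKO replicate 1 the difference was 1.24 (SE 0.22, adjusted p = 0.0241). Over all settings this adjusted p reached 0.991, at a Leiden resolution of 0.5, where the difference was -0.12. By cluster, the higher Mt2 was in cluster 17, with 21.3, 17.3 and 15.8 against 21.2, 116 and 81.3 CPM, which held 187 of the 238 goblet-like UMIs of Fpr2VKO replicate 2 and 87 of the 109 of replicate 3. Mt2 was 14.1, 19.2 and 37.2 against 9.47, 11.98 and 16.7 CPM in cluster 9 and 6.78, 15.8 and 22.7 against 11.9, 15.2 and 12.5 CPM in cluster 11, and the groups overlapped in all 3 clusters. The name of cluster 17, led by Rnase1, Ccl9 and Mmp7, was not firm. Of its 327 cells, 294 were unnamed at the resolution of 0.5, in a cluster whose best list was that of Paneth markers, and without alignment 208 were goblet-like and 116 Paneth-like. Both are the classes for which the share of free RNA could not be estimated.

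Across the classes, 50 pairs of a class and a member other than Mt1 could be fitted, 0 passed the test, 3 had an unadjusted p under 0.05, beside 6.49% of all genes over the same fits, and DESeq2 called 0 of the 29 of these pairs for which it gave an adjusted p. In the classes of those 3 pairs, DESeq2 gave 0 adjusted p in enterocyte-like, 0 in goblet-like and 1 in Paneth-like cells. The share of all genes called by DESeq2 was not computed per class, so the shares that follow are those of edgeR. As background, the fit of the Paneth-like cells called 0.86% of its genes, that of the stem-like cells 0.173%, tuft-like 0.101%, TA-like 0.0677%, goblet-like 0.0643%, enterocyte-like 0.0106%, enteroendocrine-like 0.0106% and unnamed cells 0.00729%. In enterocyte-like and in unnamed cells no gene other than Mt1, itself chosen for its difference, was so counted. Whether the group difference of a gene varied among the classes was tested in a fit over all class sums. Of the 8 members, 0 passed and 2, Mt2 and Slc39a5, had an unadjusted p under 0.05 (edgeR, smallest adjusted p = 0.792), beside 0.0139% of all genes called, and 791 of 14391 genes at an unadjusted p under 0.05. DESeq2 was not run for this test.

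The 3 pairs with an unadjusted p under 0.05 were all lower in Fpr2VKO and none is a call. Slc39a5, a basolateral importer, had 7.26, 6.76 and 7.64 CPM in Paneth-like cells of Fpr2f/f and 2.35, 3.62 and 5.21 CPM in those of Fpr2VKO (log2 fold change -0.92, SE 0.28, edgeR adjusted p = 0.0864). The groups did not overlap, on 11 to 63 UMIs per library, and the part of free RNA in this class was not tested. Without Fpr2VKO replicate 3 the difference was -1.14 (SE 0.33) and passed (adjusted p = 0.0474), and over all settings that gave one the adjusted p ran from this value to 0.634. Slc30a2 in enterocyte-like cells had 29.9, 15.4 and 23.6 against 10.5, 13.3 and 12.3 CPM (-0.91, SE 0.26, adjusted p = 0.377), and in goblet-like cells 4.02, 4.56 and 13.1 against 3.52, 2.78 and 5.82 CPM (-0.97, SE 0.45, adjusted p = 0.567). The highest value in goblet-like cells was that of Fpr2f/f replicate 3, and without this library the difference was -0.25 (SE 0.42). In unnamed cells the groups did not overlap for Slc30a2 either, with a difference of -0.36 (SE 0.21, adjusted p = 0.817). The share of all genes without overlap was computed over all cells only, at 13.1%. Within classes the lack of overlap is therefore only a description, for these pairs and for Mt2 in Paneth-like cells.

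**Figure D4:**
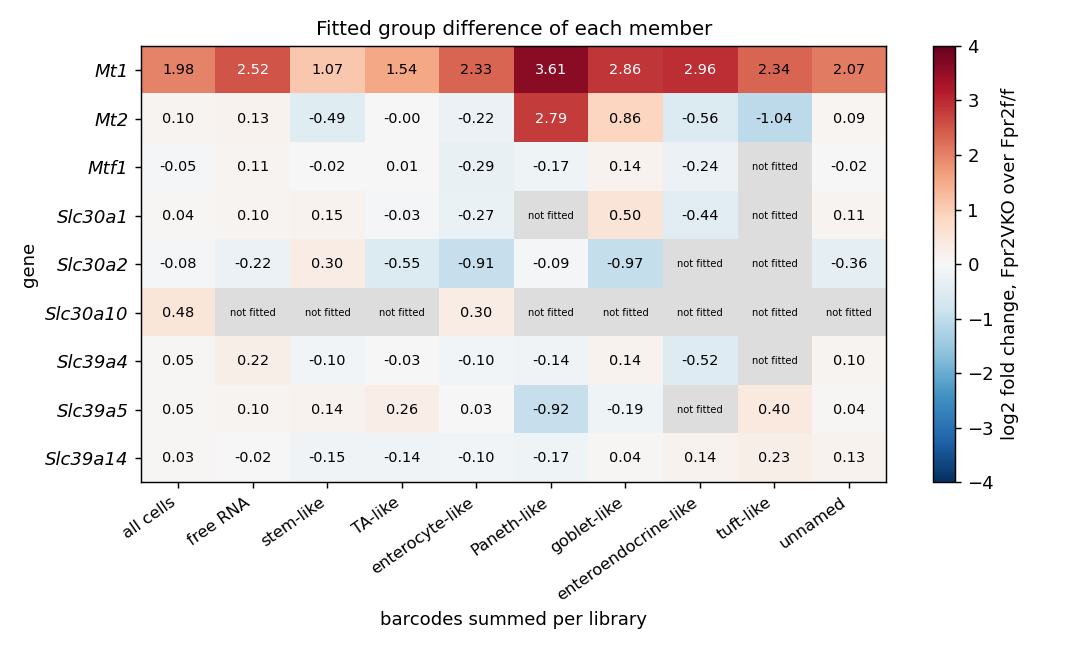
Fitted log2 fold change (Fpr2VKO over Fpr2f/f, colour and number) of each member over all cells, in free RNA and in each class, with grey where the gene did not pass the filter. The Mt1 row, a description with no test, runs from 1.07 to 3.61, and the rows of the other members hold no call.

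Across classes the members varied widely. Enterocyte-like cells had the highest mean of Mtf1, Slc30a1, Slc30a10, Slc39a4, Slc39a5 and Slc39a14 in both groups, and of Mt2 as well, though the Mt2 level of 69.3 ± 15.3 CPM (SD, n = 6) overlapped the 58.0 ± 26.1 CPM of stem-like cells and the gap was smaller than the SD. Over all 6 libraries Slc30a1 was 43.8 ± 8.23 CPM there (SD, n = 6) and 20.7 ± 2.29 CPM in the next class, the unnamed cells, with no overlap. Slc39a5 was 86.7 ± 10.8 against 62.9 ± 8.22 CPM in unnamed cells and Slc39a14 82.3 ± 10.8 against 54.1 ± 7.04 CPM in goblet-like cells, each higher in 6 of 6 libraries. Slc39a4 was 61.9 ± 11.2 against 44.7 ± 6.55 CPM in unnamed cells, higher in 5 of 6. Slc30a10 was 4.41 ± 1.78 CPM in enterocyte-like cells and at most 3.86 CPM in any library of another named epithelial class.

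For Mtf1 and Slc30a2, too, the gap to the next class was smaller than the SD. Mtf1 was 42.0 ± 8.06 CPM in enterocyte-like and 34.99 ± 7.19 CPM in enteroendocrine-like cells, higher in 6 of 6 libraries. Slc30a2 was 17.5 ± 7.604 CPM in enterocyte-like and 13.6 ± 5.13 CPM in Paneth-like cells, higher in 4 of 6 libraries, followed by 5.89 ± 1.75 CPM in stem-like cells, below the Paneth-like level in 6 of 6. In Fpr2VKO its highest mean was in Paneth-like cells. Mt2, Mtf1, Slc30a1, Slc39a4 and Slc39a14 were instead lowest in Paneth-like cells in both groups, Slc39a5 was lowest or next to lowest there, and Slc30a10 reached at most 0.214 CPM. The Paneth markers together held 392413 CPM in that class, which lowers the CPM of all other genes there.

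Mt1 itself ran in a different order of classes in each group, with TA-like not firmly split from stem-like cells (cluster 8). In Fpr2f/f it ran from stem-like (498 ± 106 CPM, SD, n = 3) through enterocyte-like (398 ± 70.3), TA-like (385 ± 68.1) and unnamed cells (342 ± 75.3) to tuft-like (247 ± 94.5), goblet-like (129 ± 34.2), enteroendocrine-like (118 ± 82.0) and Paneth-like cells (24.2 ± 3.85). The steps among the first 4 classes did not exceed the larger SD of the 2 classes, nor did that from goblet-like to enteroendocrine-like cells. In Fpr2VKO it ran from enterocyte-like (2065 ± 49.3) through unnamed (1468 ± 131), tuft-like (1248 ± 123), TA-like (1114 ± 56.4), stem-like (1034 ± 47.2), goblet-like (983 ± 49.3) and enteroendocrine-like (865 ± 60.3) to Paneth-like cells (307 ± 17.1), and each step exceeded the larger SD of its 2 classes.

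Over the 8 class means, the Pearson correlation with Mt1 on the log2(CPM + 1) scale was 0.98 for Mt2, 0.86 for Slc39a4, 0.83 for Slc39a5, 0.78 for Slc30a1, 0.77 for Mtf1, 0.76 for Slc39a14, 0.31 for Slc30a10 and -0.20 for Slc30a2 in Fpr2f/f. In Fpr2VKO it was 0.72 for Mt2, 0.96 for Slc39a4, 0.92 for Slc39a5, 0.93 for Slc30a1, 0.92 for Mtf1, 0.93 for Slc39a14, 0.52 for Slc30a10 and -0.20 for Slc30a2. These are descriptions over 8 points that share libraries and a Paneth-like class in which most members were lowest. By this measure Mt2 was the closest member in Fpr2f/f, and 5 members stood closer than Mt2 in Fpr2VKO. By rank the order differed. Spearman's rho in Fpr2f/f was 0.93 for Mt2 and 0.29 and 0.38 for Mtf1 and Slc30a1, and in Fpr2VKO Slc39a5 (1) and Slc39a4 (0.83) stood above Mt2 (0.76), with Slc39a14 level with it and Mtf1 (0.62) and Slc30a1 (0.69) below.

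**Figure D5:**
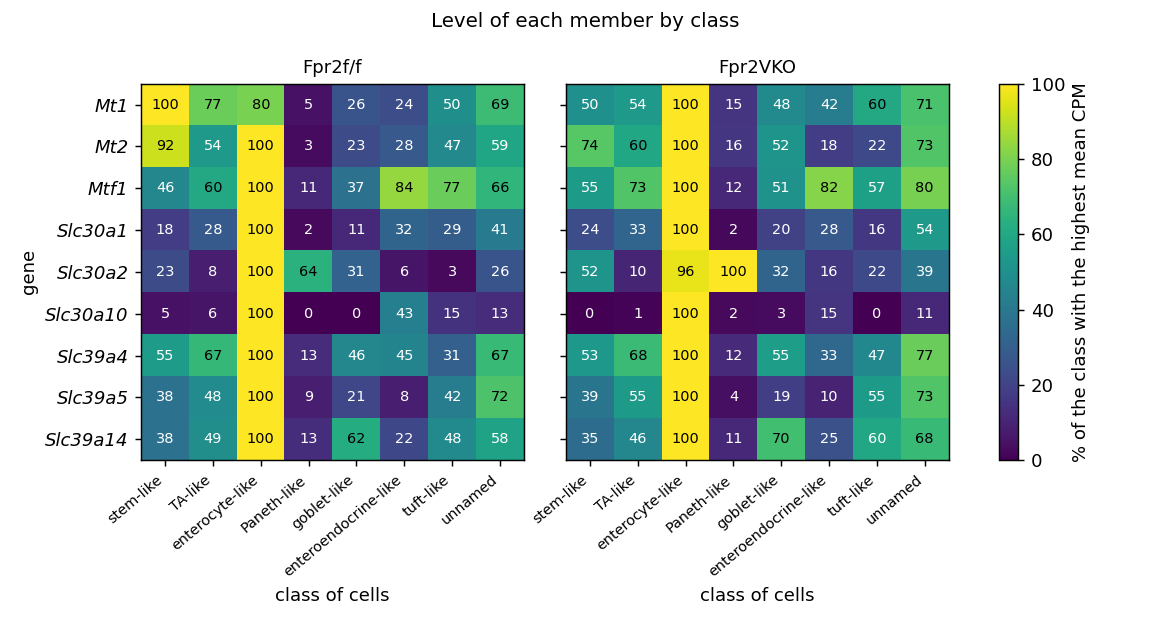
Mean CPM of each member in each class as a percentage of the class with its highest mean, in Fpr2f/f (left) and Fpr2VKO (right), 3 libraries each. Enterocyte-like cells hold the highest mean of most members in both groups. The highest Mt1 mean is that of enterocyte-like cells in Fpr2VKO and of stem-like cells in Fpr2f/f, where the gap to enterocyte-like cells does not exceed the SD.

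Over all 48 sums of a class and a library, the genes most like Mt1 among 6362 with a mean of at least 20 CPM were the mitochondrial gene mt-Cytb (Pearson r = 0.71), Apool (0.70), Hscb (0.70), mt-Atp6 (0.69) and Acp6 (0.69). Their own log2 fold changes over all cells were 0.20 to 0.34, and none was called. None of the 5 other members that reached this limit was near the top: Slc39a5 ranked 1540 (r = 0.53), Slc39a4 1747, Slc39a14 1882, Mt2 1954 (r = 0.51) and Mtf1 3154. Slc30a1, Slc30a2 and Slc30a10 lay below the limit and were not ranked. The ranking spans both groups, so it includes the group difference for which Mt1 was chosen. It cannot tell how closely a member followed Mt1 across classes alone. With the mean of each group taken out, the r of Mt2 was 0.75 and those of the 5 leading genes 0.86 to 0.90. Genes were not ranked on this r.

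Because the cells of the Fpr2VKO libraries were deeper, Mt1 was also read at matched depth. Thinned to 1000 UMIs per cell, 19.4% ± 3.28 of Fpr2f/f and 61.2% ± 1.08 of Fpr2VKO cells had an Mt1 UMI (SD, n = 3 each). Unthinned, the shares were 51.8% and 92.9%. Mt2 was found in 2.53% ± 0.768 and 2.88% ± 0.943 of thinned cells. In immune-like cells, whose median was 4014 to 5612 UMIs in Fpr2f/f and 4859 to 7939 in Fpr2VKO, the thinned share with an Mt1 UMI was 3.05% ± 3.77 and 15.4% ± 4.001. Among cells of 1000 to 2999 UMIs Mt1 was 195 ± 33.3 against 1188 ± 113 CPM, and among cells of at least 10000 UMIs 317 ± 68.4 against 1138 ± 28.4 CPM, so the ratio of means was 6.08 in shallow and 3.59 in deep cells. Mt2 had ratios of 1.44 and 0.960 in the same cells.

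In free RNA the other members also did not follow Mt1. Of the 7 that passed the filter, 0 were called, 0 had an unadjusted p under 0.05 and DESeq2 called 0. Of all genes 0.0197% were called by edgeR, and 2208 of 15226 had an unadjusted p under 0.05. DESeq2 called 141 of all genes. Mt2 was 13.5, 14.7 and 28.8 CPM in Fpr2f/f and 14.8, 19.3 and 24.1 CPM in Fpr2VKO (log2 fold change 0.13, SE 0.36, edgeR adjusted p = 0.889), and the number of Mt1 UMIs per Mt2 UMI was 10.04 ± 1.59 against 51.0 ± 6.64 (SD, n = 3 each). Slc30a1 was 12.4 ± 1.24 against 12.2 ± 1.89 CPM.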

How the data were processed

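Single-cell RNA sequencing was run on EpCAM-sorted ileal crypt cells from 3 Fpr2f/f and 3 Fpr2VKO libraries. Groups and replicate numbers come from the labels. The deposited values are raw UMI counts per gene and barcode, made by the authors with MobiVision on mm10, with all barcodes included. The submitters' processing notes also name Seurat 4.0.0.

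Barcodes with at least 1000 UMIs, 500 genes and at most 20% mitochondrial UMIs were kept, and doublets and free RNA were left in. Mutual nearest neighbours aligned the libraries before clustering (scanpy 1.11.5, Leiden resolution 1) without the members and listed genes, and clusters were named from marker lists. UMIs were summed per library, and per class with at least 20 cells in a library. The test was edgeR 4.0.16 quasi-likelihood (R 4.3.3, TMM, filterByExpr, two-sided, Benjamini-Hochberg over all genes of a fit, called under 0.05), checked on simulated data. DESeq2 1.42.0, other scalings, filters, limits, a replicate block and leaving out each library were alternatives. Values in CPM are counts per 1000000 UMIs of the same barcodes. They carry counting error as well as the spread between libraries.

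The members and lists were chosen with earlier results of these data known. All 9 members were named, with up to 4 genes per list by size of change among genes of at least 5 CPM, the 5 genes most like Mt1 over class sums and any called neighbour of Mt1. Slc39a6, Cybrd1, Hmox1, Saa1 and Mt3 were named after their values were seen. Coordinates are from GENCODE vM21 on GRCm38, and promoters from RefSeq, with entries for 7 of the 9 members.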

Additional observations from a re-analysis of the deposited data

Results flagged for a closer look

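Barcodes with 20% to 40% mitochondrial UMIs were left out of the comparisons of the report and entered only the alternative with a mitochondrial limit of 40%. In those of Fpr2VKO, Mt1 stood above the level in those of the control group. There were 16415 such barcodes in Fpr2f/f and 23266 in Fpr2VKO. Mt1 was 202, 190 and 278 CPM in the Fpr2f/f libraries and 1067, 1064 and 1158 CPM in the Fpr2VKO libraries, a fitted log2 fold change of 2.28, and the groups did not overlap. Mt2 in the same barcodes was 18.3, 16.8 and 29.1 against 23.0, 23.2 and 34.0 CPM, a fitted log2 fold change of 0.30 (SE 0.22, edgeR adjusted p = 0.652), with overlapping groups.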

How the results depend on the processing

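The fitted log2 fold change of Mt1 over all cells ran from 1.88 to 2.15 over 15 alternatives. No member other than Mt1 was called over all cells under any of them. The number of genes called over all cells, 3 as reported, was 96 with DESeq2, 89 with no filter, 26 at a mitochondrial limit of 10%, 1 at 2000 UMIs and 1 to 40 with a library left out (40 without Fpr2f/f replicate 1, and 1 without Fpr2f/f replicate 3 or Fpr2VKO replicate 1 or 3). Pairs of a class and a member numbered 0 to 1 with a library left out. In free RNA 3 genes were called, and 141 with DESeq2, 478 with no filter, 6 at a limit of 50 UMIs and 2 to 11 with a library left out. Genes whose difference varied among classes numbered 2, then 1 without alignment and 0 to 12 with a library left out. The difference in the share of cells with an Mt2 UMI was 5.58 percentage points unthinned.

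With the replicate block, 3 genes were called over all cells, 714 in free RNA and 1 pair, Mt2 in Paneth-like cells (3.06, edgeR adjusted p = 1.66e-05). Same-numbered libraries correlated at 0.0695, 0.123 and 0.495 in their deviations from the group means. Replicate 3 of each group correlated at -0.263 to -0.176 with replicates 1 and 2 of the other group. Whether same-numbered libraries share more than a number was not tested. Fpr2f/f replicate 1 correlated best with Fpr2VKO replicate 2 (0.103).

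At a mitochondrial limit of 10% the log2 fold change changed sign for Slc30a1 (-0.29), Slc30a2 (0.45), Slc39a4 (-0.10) and Slc39a5 (-0.11), and at 40% for Slc39a5 (-0.029) and Slc39a14 (-0.018). With a library left out the ranges were -0.11 to 0.49 for Mt2, -0.095 to 0.018 for Mtf1, -0.021 to 0.12 for Slc30a1, -0.23 to 0.038 for Slc30a2, 0.15 to 0.78 for Slc30a10, -0.058 to 0.13 for Slc39a4, -0.061 to 0.13 for Slc39a5 and -0.078 to 0.17 for Slc39a14. The cause was not tested for any of these. The number of libraries and, for Slc30a10 and the smaller classes, the number of UMIs limit what could be seen.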

Other observations

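The members differed in how their level in free RNA compared with that in cells of the same library. Slc39a5, the basolateral importer gene, was higher in free RNA than in cells in 6 of 6 libraries, with a ratio of 1.13 to 1.71. Mt1, Mt2, Mtf1, Slc30a1, Slc30a2, Slc39a4 and Slc39a14 were lower in free RNA in 6 of 6 libraries. The ratio was 0.520 to 0.951 for Mt1 and 0.399 to 0.611 for Mt2. Slc30a10, with few UMIs, was higher in free RNA in 4 of 6. No test was run on these ratios.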
